A study of Homo sapiens with 2 samples.

Results

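Levels of 10 genes of the Notch pathway were compared between control and FZR1 ko breast cancer cells, both treated with cisplatin. They are the receptors NOTCH1, NOTCH2, NOTCH3 and NOTCH4, the ligands JAG1, JAG2 and DLL1, the nuclear factor RBPJ, and the target genes HES1 and HEY1. The 10 genes were picked by symbol out of the 23033 genes with a value, and all 10 have one. They were chosen after a difference in these same libraries had been seen, namely the higher value of JAG2 in FZR1 ko, so its values are a description. Total RNA was sequenced from 1 library of each genotype, labelled T-47D with genotype WT (called control here) and T-47D with FZR1 ko, each given cisplatin at 2 µg/ml. FZR1 ko cells were made with CRISPR/Cas9 delivered by lentivirus and were grown from a single cell, so they stand for 1 clone. The time in cisplatin of these libraries was not given in the sources used here, and cells without the drug were not analysed here. There were no replicates, so no difference below has an error, and no test was made.

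Notch receptors and their ligands are both anchored in the cell membrane, so the signal passes between cells that touch. Binding of a ligand opens the receptor to cleavage, first by an ADAM protease and then by gamma-secretase, and the freed intracellular part enters the nucleus. There it joins RBPJ and a Mastermind protein at genes of the HES and HEY families, whose products are repressors. In breast epithelium the pathway is known for its part in the choice between luminal and basal fate, and in breast cancer for JAG1 and NOTCH3 in aggressive disease.

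The values are FPKM (mapped fragments divided by transcript length and by library total), so levels may be compared between genes. They hold no read counts, and the depth behind a value is unknown. In 46 of 244 short RNA genes the ratio of FZR1 ko to control lay within 0.5% of 0.977, as it would if 1 read had nearly the same worth in both libraries. Differences are given as log2 ratios, log2(FPKM + 1) of FZR1 ko minus that of control, over the 13554 genes that reached 1 FPKM in either library. Their median was -0.0048. FZR1 itself had 12.3 FPKM in the control library and 10.1 FPKM with FZR1 ko, a log2 ratio of -0.26. A small deletion need not remove the mRNA, and its level therefore checks no label. Of 12 markers of luminal cells, 6 were under 1 FPKM in both libraries, among them ESR1, PGR, GATA3 and the E-cadherin gene CDH1, although T-47D is a luminal line. KRT8 had 829 FPKM in the control library and 998 FPKM with FZR1 ko. EPCAM, an epithelial adhesion gene, was the 1 luminal marker at least 2-fold higher, with 3.9 and 11.5 FPKM. Of 12 basal and mesenchymal markers 8 passed the filter, and their summed level over the list was 439 FPKM in the control library and 383 FPKM with FZR1 ko. VIM, the vimentin gene, had 315 and 295 FPKM and KRT17, a basal keratin, had 103 and 55.8 FPKM, while KRT5, KRT14 and TP63 were under 1 FPKM in both. CDH2, the N-cadherin gene, was the 1 marker of that list at least 2-fold higher, with 2.97 and 15.3 FPKM. TWIST1, of the same list, had 0.18 and 1.16 FPKM, a plain ratio of 6.44, and adding 1 FPKM to both kept its log2 ratio at 0.87. Of the 8 markers of that list kept, 3 lay above 0 and 5 below. The part of these markers in the values of the 10 genes was not tested.

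Of the 3 receptors that passed the filter, NOTCH2 and NOTCH3 were at least 2-fold higher in FZR1 ko and NOTCH1 was not. NOTCH3 (Entrez gene 4854, chromosome 19 of hg38, 15159038 to 15200995, minus strand) had 1.77 FPKM in the control library and 12.1 FPKM with FZR1 ko. This is a ratio of 6.84 and a log2 ratio of 2.24, the 26th highest among the 13554 genes. NOTCH2 (gene 4853, chromosome 1, 119911553 to 120069662, minus strand) had 10.6 FPKM in the control library and 24.1 FPKM with FZR1 ko, a log2 ratio of 1.11. NOTCH1 (gene 4851, chromosome 9, 136494433 to 136546048, minus strand) lay nearer to no difference, at 10.3 and 12.5 FPKM and a log2 ratio of 0.26. NOTCH4 (gene 4855, chromosome 6, 32194843 to 32224067, minus strand), a receptor typical of endothelium, had 0.12 and 0.06 FPKM and did not pass the filter. In such bulk libraries a change in the number of cells that use a gene and a change in its RNA per cell cannot be told apart.

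**Figure D1:**
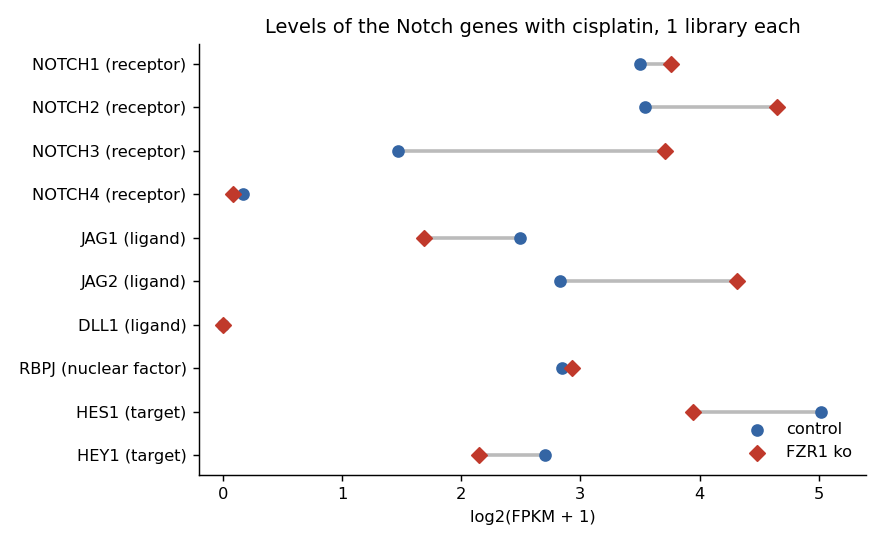
Level of each of the 10 genes as log2(FPKM + 1), with a circle for the control library and a diamond for the FZR1 ko library, 1 library each. The diamonds of NOTCH2, NOTCH3 and JAG2 lie to the right of their circles and those of JAG1, HES1 and HEY1 to the left, while both symbols of DLL1 coincide at 0.

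Summed over the 4 receptors, FPKM went from 22.8 in control to 48.8 in FZR1 ko. NOTCH2 made up 46.6% of it in control and 49.3% with FZR1 ko. The share of NOTCH1 was 45.1% in control and 25.7% in FZR1 ko. NOTCH3 went from 7.76% to 24.8% of the sum, close to NOTCH1 in FZR1 ko. Without replicates, receptors as close as NOTCH1 and NOTCH2 in control, or NOTCH1 (12.5 FPKM) and NOTCH3 (12.1 FPKM) in FZR1 ko, cannot be ranked. NOTCH2 shares sequence with partial copies of itself, and how reads were split among them is uncertain. NOTCH2NLA, the 1 copy analysed here, had 1.51 FPKM in the control library and 2.04 FPKM with FZR1 ko.

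Transcript length went along with the log2 ratio across all genes, and the receptors are among the longest. With the genes split into 10 equal groups by the length of their longest transcript, the median log2 ratio was -0.13 in the shortest group and 0.30 in the longest. All 3 receptors that passed the filter are in the longest group. NOTCH1 and NOTCH3 are also in the highest of 10 groups of GC content, and the 45 genes in both top groups had a median of 0.54. With the median of genes of like GC content and length subtracted, the log2 ratio of NOTCH3 was 1.70, that of NOTCH2 was 0.71 and that of NOTCH1 was -0.28. NOTCH3 thus stayed past 2-fold, NOTCH2 did not, and NOTCH1 changed sign. The part of this trend in the receptor values was not tested.

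Among the ligands JAG2 was past 2-fold upwards and DLL4 downwards. JAG2 (gene 3714, chromosome 14, 105140995 to 105168776, minus strand) had 6.12 FPKM in the control library and 18.9 FPKM with FZR1 ko, a ratio of 3.08 and a log2 ratio of 1.48. That is the 228th highest of the 13554 log2 ratios, and it was 1.33 with the GC and length trend subtracted. JAG1 (gene 182, chromosome 20, 10637684 to 10673999, minus strand), the closest relative of JAG2, had 4.64 FPKM in the control library and 2.22 FPKM with FZR1 ko. Its ratio of control to FZR1 ko was 2.09, but the pseudocount brought the log2 ratio to -0.81, short of 2-fold. With the trend of GC content and length subtracted JAG1 stood at -1.09, past 2-fold. DLL1 (gene 28514, chromosome 6, 170282206 to 170291078, minus strand), a Delta-like ligand, was listed at 0 in both libraries. DLL3 and DLL4, the other canonical ligands, are not among the 10 genes and were added from a list of the pathway. DLL3, which acts mainly as an inhibitor of signalling within the cell, had 1.77 and 3.15 FPKM. DLL4, the ligand of sprouting endothelium, had 7.59 FPKM in the control library and 0.42 FPKM with FZR1 ko, a log2 ratio of -2.60. In control the level of DLL4 was close to that of JAG2, and without replicates they cannot be ranked, while in FZR1 ko DLL4 was the lowest of the canonical ligands above 0.

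The sum over the ligands differed less than their shares of it. The 5 canonical ligands summed to 20.1 FPKM in the control library and 24.6 FPKM with FZR1 ko. JAG2 went from 30.4% to 76.5% of that sum, JAG1 from 23.1% to 9.01% and DLL4 from 37.7% to 1.70%. In control, 3 ligands thus held shares above 20%, and in FZR1 ko JAG2 alone did. Of 8 markers of endothelial cells, CDH5 went the way of DLL4, from 3.64 FPKM in the control library to 0.33 FPKM with FZR1 ko. The 8 markers together summed to 44.5 FPKM in the control library and 38.0 FPKM with FZR1 ko, of which ESAM alone had 40.3 and 37.3 FPKM. PECAM1 had 0.30 and 0.32 FPKM, KDR had 0.08 and 0.01 FPKM, and TEK was listed at 0 in both. Their part in the DLL4 values was not tested.

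**Figure D2:**
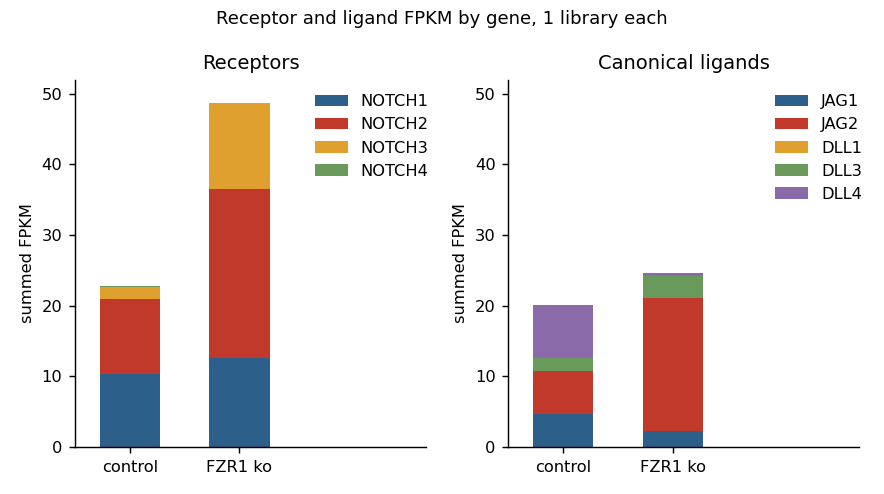
Summed FPKM of the 4 receptors (left) and the 5 canonical ligands (right) in the control and the FZR1 ko library, with each gene as a coloured segment and no error bars, since each bar is 1 library. The receptor bar goes from 22.8 to 48.8 FPKM with a larger NOTCH3 segment, and the ligand bar goes from 20.1 to 24.6 FPKM with JAG2 at 76.5% of it in FZR1 ko.

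RBPJ, the DNA-binding partner of all 4 receptors, stayed within 2-fold. RBPJ (gene 3516, chromosome 4, 26105449 to 26435131, plus strand) had 6.18 FPKM in the control library and 6.62 FPKM with FZR1 ko, a log2 ratio of 0.09. Of the target genes among the 10, HES1 passed 2-fold and HEY1 did not, both with a log2 ratio below 0. HES1 (gene 3280, chromosome 3, 194136148 to 194138732, plus strand), a repressor that also acts on its own gene, had 31.4 FPKM in the control library and 14.4 FPKM with FZR1 ko. Its log2 ratio was -1.08, just past 2-fold, and -0.94, short of it, with the GC and length trend subtracted. HEY1 (gene 23462, chromosome 8, 79764010 to 79767767, minus strand), a related repressor, had 5.49 and 3.43 FPKM, a log2 ratio of -0.55. Among the 10 genes HES1 had the highest level in control, while NOTCH2 and JAG2 stood above it in FZR1 ko.

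**Figure D3:**
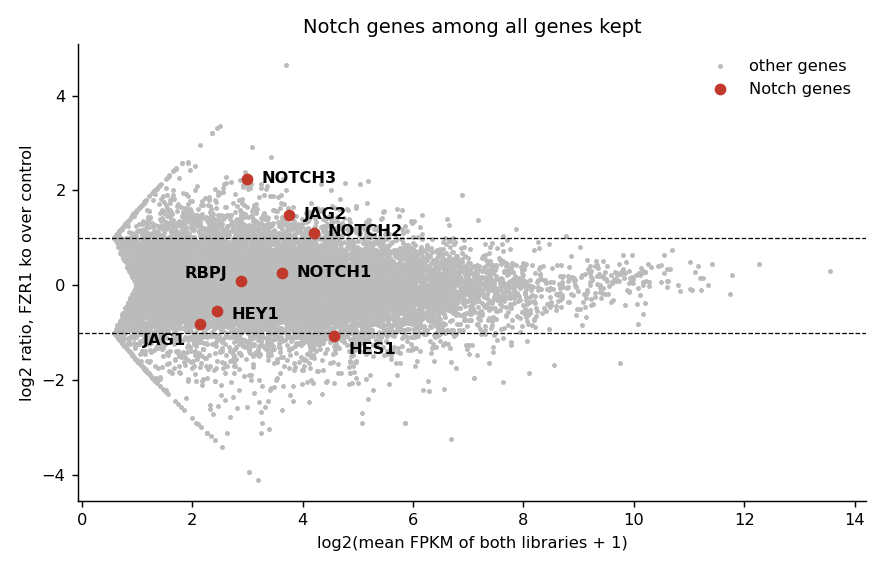
Log2 ratio of FZR1 ko over control (vertical axis) against log2 of the mean FPKM of both libraries plus 1 (horizontal axis) for the 13554 genes kept, with the 8 Notch genes that passed the filter in red and dashed lines at 2-fold. NOTCH3, JAG2 and NOTCH2 lie above the upper line and HES1 just below the lower one.

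Of the 10 genes, 8 passed the filter on low values and NOTCH4 and DLL1 did not. NOTCH2, NOTCH3 and JAG2 were at least 2-fold higher in FZR1 ko and HES1 was at least 2-fold lower, while 4 genes stayed within 2-fold. Over all genes kept, 6.78% were at least 2-fold higher and 6.72% at least 2-fold lower in FZR1 ko, 13.5% in all. The list was drawn up with this comparison known, so nothing is read from the difference of these shares. The median log2 ratio of the 8 genes was 0.17, with 5 above 0 and 3 below.

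The letters that RBPJ is known to bind were looked for in promoter windows, 250 bases before to 50 after the start of a gene, taken from RefSeq on GRCh38.p14 (the hg38 build). Of the 10 genes, 8 matched a window, 12 windows in all because RBPJ has 5. The core TGGGAA, on either strand, was found in the window of HES1 and in 1 of the 5 windows of RBPJ. It was found in none of the windows of NOTCH1, NOTCH2, NOTCH3, NOTCH4, JAG1 or JAG2. Of all 35116 windows, 24% hold it. The longer GTGGGAA, which contains the core, is in 6.25% of all windows. Shown here are the 120 bases before the start of the HES genes that passed the filter and hold the core there, of RBPJ where it is present, and of the 2 genes of the list that were furthest above control, where it is not. Capitals mark TGGGAA or its reverse complement, and each runs 5′ to 3′ on the strand of its gene.
HES1, chr3:194136028-194136147, plus strand: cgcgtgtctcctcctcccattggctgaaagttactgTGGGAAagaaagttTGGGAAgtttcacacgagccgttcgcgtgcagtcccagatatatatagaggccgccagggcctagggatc
HES4, chr1:1000098-1000217, minus strand: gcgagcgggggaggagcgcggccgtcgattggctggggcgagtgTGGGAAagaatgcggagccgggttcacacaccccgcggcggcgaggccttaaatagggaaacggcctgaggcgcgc
HES5, chr1:2530264-2530383, minus strand: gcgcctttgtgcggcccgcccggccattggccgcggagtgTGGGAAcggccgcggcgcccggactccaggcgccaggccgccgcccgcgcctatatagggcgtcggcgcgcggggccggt
RBPJ, chr4:26319626-26319745, plus strand: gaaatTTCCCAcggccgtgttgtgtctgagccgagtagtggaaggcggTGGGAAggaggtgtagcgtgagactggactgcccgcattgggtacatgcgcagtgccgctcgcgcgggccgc
JAG2, chr14:105168777-105168896, minus strand: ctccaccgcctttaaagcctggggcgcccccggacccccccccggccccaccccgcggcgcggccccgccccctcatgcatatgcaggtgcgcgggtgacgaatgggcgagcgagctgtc
NOTCH3, chr19:15200996-15201115, minus strand: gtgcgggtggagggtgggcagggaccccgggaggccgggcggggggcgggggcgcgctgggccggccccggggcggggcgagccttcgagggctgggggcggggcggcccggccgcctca

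In HES1 the core occurs in the same orientation from -84 to -79 and from -70 to -65, counted back from the start of the gene, with a single GTGGGAA from -85 to -79. HES4 has GTGGGAA from -77 to -71, and HES5 has it from -81 to -75 and, on the other strand, from -224 to -218. Of the 9 windows of the HES and HEY family, 6 hold TGGGAA and 5 hold GTGGGAA. Windows of HES3, HEYL and HEY2 also hold the core but are not printed, since these genes were under 1 FPKM in both libraries. The windows of JAG2 and NOTCH3 are 79.7% and 78.3% G and C, against a median of 58.7% over all windows. The AP-1 letters TGANTCA are in 2 of the 12 windows of the 10 genes, those of NOTCH4 and 1 of RBPJ, and in 7.71% of all windows. The E-box CACGTG is in 0 of the 12 and in 7.26% of all windows. A match or its absence in this window is a description of the letters alone.

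Genes of the family lay on both sides of 0 with and without these letters. Among genes whose window holds the core and that passed the filter, HES1 stood at -1.08, HES4 at -0.30 (71.8 and 58.3 FPKM) and HES5 at 0.53 (2.51 and 4.06 FPKM). Among those without it, HES2 stood at -1.12 (26.8 FPKM in the control library and 11.8 FPKM with FZR1 ko) and HES6 at -0.71 (13.5 and 7.86 FPKM). HES7, an oscillating repressor of the segmentation clock, stood at 1.06 (2.32 and 5.92 FPKM). HEY2 and HEYL were under 1 FPKM in both libraries, as was HES3. Of the 10 HES and HEY genes, 7 passed the filter, with 2 at least 2-fold lower, 1 at least 2-fold higher and a median of -0.55, which was -0.32 with a pseudocount of 5 FPKM. Of all genes kept, 6.72% were at least 2-fold lower and 6.78% at least 2-fold higher.

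Other known targets of the pathway are also targets of other pathways, and 8 of 12 passed the filter. None was at least 2-fold higher and 2 were at least 2-fold lower, against 6.78% and 6.72% of all genes kept. The median of the 8 was -0.41. That median was -0.12 with no filter on low values and -0.15 with at least 1 FPKM in both libraries, which leaves out SOX9. CDKN1A, which encodes p21 and is best known as a p53 target, had 319 FPKM in the control library and 77.2 FPKM with FZR1 ko. SOX9, a factor of progenitor cells, had 5.25 and 0.92 FPKM, a log2 ratio of -1.70. NRARP, a target that in turn limits Notch signalling, had 31.0 FPKM in the control library and 19.1 FPKM with FZR1 ko, a log2 ratio of -0.67 that was short of 2-fold. ERBB2, the HER2 receptor gene, had the highest log2 ratio of the list, 0.91, from 7.06 to 14.2 FPKM. Its plain ratio was 2.01, and the pseudocount kept it short of 2-fold. MYC also lay above 0, at 0.76.

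Genes that act on the receptors before the nucleus were mostly within 2-fold, as were most of all genes kept. Of all genes kept, 6.78% were at least 2-fold higher and 6.72% at least 2-fold lower. None of the 9 genes of receptor cleavage passed 2-fold in either direction, and their median was 0.19. In that list PSEN2, a catalytic subunit of gamma-secretase, was highest at 0.76 (from 12.6 to 22 FPKM). FURIN, the protease that cuts the receptor on its way to the surface, was lowest at -0.68 (71.1 and 43.9 FPKM). Of 8 genes of receptor glycosylation kept, 2 were at least 2-fold higher, with a median of -0.20 over the list. They are XXYLT1, a xylosyltransferase, with 1 and 4.03 FPKM, and MFNG, a Fringe enzyme, with 0.38 and 1.87 FPKM. LFNG, the Fringe enzyme with the highest level, had 32.7 FPKM in the control library and 16.8 FPKM with FZR1 ko, a log2 ratio of -0.92. Fringe enzymes are known to shift receptors from Jagged towards Delta-like ligands.

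Of the 3 ubiquitin ligases of ligands kept, which pull ligand into the sending cell, none passed 2-fold and their median was 0.45. MIB1 was highest at 0.48 and MIB2 lowest at -0.02. In the list of receptor turnover, with a median of 0.20, 1 of 9 genes kept was at least 2-fold higher, against 6.78% of all genes kept. That gene was DTX4, a Deltex ubiquitin ligase, with 2.96 and 7.37 FPKM, and DTX3L was lowest at -0.55. Among the non-canonical ligands 1 of 3 genes kept passed 2-fold. MFAP2, a microfibril protein, had 1.08 FPKM in the control library and 9.11 FPKM with FZR1 ko, a log2 ratio of 2.28, while DLK2 stood at -0.01.

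In the nucleus RBPJ works with activating partners or with corepressors. Of the 6 genes of the activating complex kept, RBPJ included, none passed 2-fold and the median was 0.07. EP300, an acetyltransferase, was highest at 0.38 and MAML1, the best expressed Mastermind gene, was lowest at -0.29 (18.4 and 14.8 FPKM). Of the 14 corepressor genes kept, 13 lay above 0, with a median of 0.46, against -0.0048 over all genes kept. At least 2-fold higher were 3 of the 14, against 6.78% of all genes kept. Among these 3, CTBP2 had 4.94 and 13.1 FPKM (1.25) and NCOR1 had 3.71 and 9.01 FPKM (1.09). TLE3, which binds HES proteins, was the 1 gene of the list below 0, at -0.32. NCOR1 and CTBP2 have transcripts in the longest group, and with the GC and length trend subtracted CTBP2 stood at 0.84 and NCOR1 at 0.78. The median of the corepressor list was 0.57 with that trend subtracted, against 0.46 without.

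**Figure D4:**
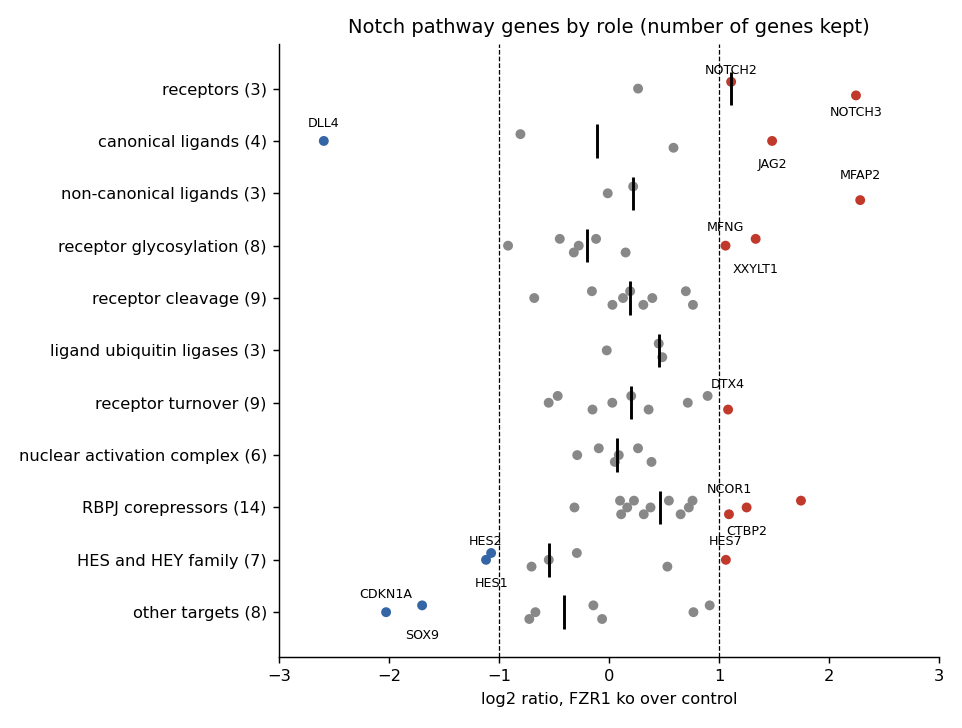
Log2 ratio of FZR1 ko over control for each gene kept of the 11 role lists of the pathway, with the number of genes kept in brackets, a black bar at each list's median and dashed lines at 2-fold. Genes at least 2-fold higher are red and those at least 2-fold lower are blue, and the medians run from -0.55 for the HES and HEY family to 1.11 for the receptors.

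Over the whole pathway, 74 of 93 genes with a value passed the filter, 11 of them at least 2-fold higher and 5 at least 2-fold lower in FZR1 ko. That is 21.6% past 2-fold, against 13.5% of all genes kept, and 4 of these 16 genes belong to the 10. Without the 10 genes, 12 of 66 (18.2%) were past 2-fold. The median log2 ratio of the pathway was 0.18 with or without them, while the median of all genes kept was close to 0. With the trend of GC content and length subtracted, 7 genes were at least 2-fold higher in place of 11, and NOTCH2, DTX4, NCOR1 and CTBP2 were the ones lost. The number at least 2-fold lower was again 5. With the same subtraction, 787 of all 13145 genes were at least 2-fold higher and 846 at least 2-fold lower. Without it these were 919 and 911 of 13554.

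Genes that lie beside the 10 in the genome were compared with them. For each gene the 5 genes kept on either side were taken in the order of their start on hg38. They spanned from 323 kb around NOTCH1 to 12566 kb around RBPJ, so beside means next in order and not always near. Beside NOTCH3 the 10 neighbours had a median of -0.35 and none was past 2-fold. Beside NOTCH2 the median was -0.30, with PHGDH higher (24.9 and 78.2 FPKM) and ZNF697 lower (9 and 3.63 FPKM). Beside HES1 the median was 0.24, with only FAM43A past 2-fold, at -1.53. JAG1, itself lower, had neighbours with a median of 0.36 and none past 2-fold. The neighbours of NOTCH1 had a median of 0.33, near its own 0.26, with EGFL7 higher (15.4 and 32.6 FPKM) and MIR4674 lower (2.32 FPKM in control and listed at 0 in FZR1 ko). Those of HEY1 had a median of 0.30, with MRPS28 and TPD52 at least 2-fold higher. Those of RBPJ had a median of 0.09, the value of RBPJ itself, with RELL1 at least 2-fold lower. The neighbours of NOTCH4 and DLL1, which did not pass the filter themselves, had medians of -0.30 and -0.15, each with 1 gene past 2-fold.

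Of the 10 genes taken beside JAG2, MIR6765 lies inside it. The 9 outside JAG2 had a median of 0.20, with 2 at least 2-fold higher in FZR1 ko, both at higher coordinates. NUDT14, whose coordinates follow those of JAG2, had 10.2 FPKM in the control library and 22.1 FPKM with FZR1 ko, and BRF1, the next, had 3.08 and 9.25 FPKM. The neighbour after them, BTBD6, had 35.2 and 36.8 FPKM. PACS2, the next again, had 1.68 and 3.84 FPKM, a log2 ratio of 0.85 that was short of 2-fold. MIR6765 was listed at 0 in control and at 4.53 FPKM in FZR1 ko. Its 87 bases, from 105150778 to 105150864 on chromosome 14, are exactly the intron between exons 11 and 12 of the canonical JAG2 transcript. Reads of that microRNA and of unspliced JAG2 RNA cannot be told apart here. The neighbours were named after their values were seen.

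**Figure D5:**
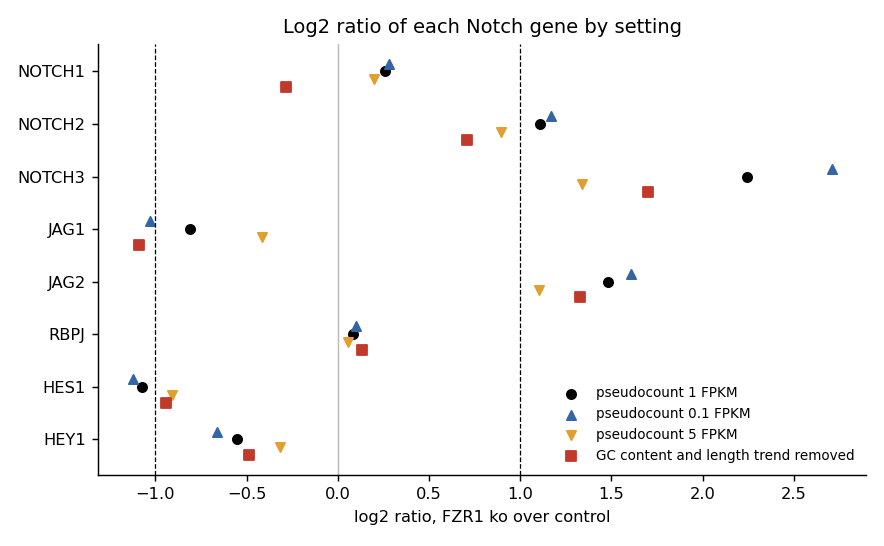
Log2 ratio of FZR1 ko over control for the 8 Notch genes that passed the filter, with a pseudocount of 1, 0.1 or 5 FPKM or with the trend of GC content and length subtracted, and dashed lines at 2-fold. NOTCH3 and JAG2 stay to the right of the upper line in all 4 settings, NOTCH1 changes side of 0 in 1 of them, and JAG1, HES1 and HEY1 stay to the left of 0 in all 4.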

How the data were processed

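RNAseq of 1 control and 1 FZR1 ko library was analysed. Reads of the BGISEQ-500 platform were aligned by the authors to the transcriptome with Bowtie2 and quantified with RSEM on hg38. The submitters' processing notes also name Trimmomatic 0.36 and HISAT2 2.1.0 and give Bowtie2 as 2.2.5. The deposited values are FPKM per Entrez gene, rounded to 2 decimals. The annotation version and the filters are not given in the sources used here. Of 24663 genes, 1630 have no value and 23033 were used, of which 22925 matched a symbol in RefSeq (GRCh38.p14). The table has 0 other columns of values.

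Log2 ratios used a pseudocount of 1 FPKM, which pulls low genes towards 0, and at least 1 FPKM in at least 1 library. With 1 library per condition no p-value was computed. The calculation was tested on simulated data. The 10 genes, the lists and the alternatives were chosen with earlier results of these data known. Named genes are the 10, FZR1, genes of a list past 2-fold, each list's highest and lowest gene, markers and the NOTCH2 copy. NRARP, MYC, other HES and HEY genes, DLL3 and neighbours were named after their values were seen, and a few genes under this rule are not reported here. GC content and length came from the longest GENCODE 44 transcript, for 13145 of the 13554 genes kept, in 10 by 10 groups. The alternatives were other pseudocounts, filters, centring, rescaling, a 4-fold threshold and removal of the GC and length trend. Protein sequences were not analysed here. Python 3.11.15, numpy 2.4.6, pandas 2.3.3 and matplotlib 3.10.9 were used.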

Additional observations from a re-analysis of the deposited data

How the results depend on the processing

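No paired analysis was possible because control and FZR1 ko have 1 library apiece and no test was made, nor could a library be left out. The value of a gene was taken as unchanged when it kept its direction and its side of 2-fold. Medians and counts were judged by how much they changed in size, and medians also by their sign. Of 56 values of the 8 genes that passed the filter, 49 were unchanged under their alternatives and 7 moved, among them NOTCH1 with its change of sign, and 0 of the genes past 2-fold changed direction. Of the 3 genes at least 2-fold higher, 1 was left at 4-fold. The 1 gene at least 2-fold lower became 2 with a pseudocount of 0.1 FPKM and 0 with one of 5 FPKM or at 4-fold. With a pseudocount of 5 FPKM NOTCH2 stood at 0.89 and HES1 at -0.91, and with one of 0.1 FPKM JAG1 stood at -1.03. With the GC and length trend removed the 1 lower gene was JAG1 in place of HES1. The median of the 10 genes, 0.17, was 0.043 with no filter on low values and -0.076 with the GC and length trend removed. Over the whole pathway 11 genes were higher, against 4 with a pseudocount of 5 FPKM, 7 with the trend removed and 2 at 4-fold. Over all genes 919 were higher, against 183, 787 and 61 with the same changes. The 5 lower genes of the pathway became 2 with a pseudocount of 5 FPKM, 3 with at least 1 FPKM in both libraries and 2 at 4-fold. Over all genes the 911 lower ones became 270, 620 and 89. The median of the pathway, 0.18, was 0.11 with no filter. The median of the canonical ligands turned from -0.11 to 0.58 with at least 1 FPKM in both libraries, which leaves out DLL4, and that of the activating complex from 0.07 to -0.022 with the trend removed. With no filter the medians were 0.68 for the receptors, 0.21 for the ligand ubiquitin ligases, -0.12 for receptor glycosylation, 0.11 for receptor turnover and -0.12 for the other targets. With a pseudocount of 5 FPKM the median of the HES and HEY family was -0.32 and that of the ligand ubiquitin ligases 0.29. Rescaling to an equal sum moved the median of all genes from -0.0048 to 0.0017. Fewer genes pass a larger pseudocount or threshold by construction, and for the medians of the 10 genes and of the activating complex the cause was not tested. Centring and rescaling changed no call among the 10 genes. The depth is unknown, which limits low genes such as NOTCH4, DLL1 and MIR6765 most.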
